A study of Mus musculus with 9 samples.

Results

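The genes described here carry out glycolysis or belong to the transcriptional response to low oxygen. The set comprised 35 named mouse genes, with 5 of oxygen sensing and 17 glycolytic enzymes and lactate dehydrogenases. It also held 3 glucose and lactate transporters, 2 pyruvate dehydrogenase kinases and 8 other hypoxia targets. The genes were chosen by name with earlier results of these data known, so shares of members beside all genes are description only. A gene was followed through every probe set (a group of short oligonucleotides against 1 transcript) whose array annotation gave its symbol and no other. This found 75 of the 36899 probe sets for 32 of the 35 genes, and 31 genes had a probe set that was not an array control, out of 15964 such genes in the series.

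The study compared 3 mouse stromal cell lines. AGM-s3-A9 supports hematopoiesis and comes from the aorta-gonad-mesonephros (AGM) region of the embryo, OP9 also supports it and comes from newborn mouse calvaria, and AGM-s3-A7, from the AGM region, does not support it. RNA of each line was hybridised to 1 Affymetrix MG-U74A, 1 MG-U74B and 1 MG-U74C array, 9 arrays in all, and the labels give no treatment and no oxygen level. With 1 line for each behaviour and 1 array per line and array type, no difference below has a replicate check or a p-value, and support and the other ways in which the lines and cultures differ cannot be told apart.

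Cells sense oxygen through HIF, a transcription factor made of an alpha subunit (Hif1a or Epas1) and the partner Arnt. In the presence of oxygen the prolyl hydroxylases Egln1 and Egln3 mark the alpha subunits for destruction by way of the Vhl ubiquitin ligase, so HIF activity is set mainly at the level of protein, which arrays do not measure. HIF raises transcription of glucose transporters, glycolytic enzymes, lactate dehydrogenase and pyruvate dehydrogenase kinases, which turn a cell toward lactate production, and of genes for collagen hydroxylation, mitophagy and growth restraint. Hematopoietic stem cells and part of their stroma are known for residing in poorly oxygenated marrow.

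Of the 9 member hypoxia targets other than glycolytic enzymes that were tested, 6 passed 2-fold upward for AGM-s3-A9 over OP9. These 9 pool transporters, pyruvate dehydrogenase kinases and other hypoxia targets, and Ddit4, Bnip3 and Pdk3 among them did not pass. Of 13 glycolytic enzymes and lactate dehydrogenases, 1 passed, and among all genes tested the share was 6.58%. Of 20 further hypoxia targets that are not members, 1 passed upward and 1 downward. P4ha1, P4ha2 and Adm were 3.93-, 2.73- and 2.93-fold higher in AGM-s3-A9 relative to OP9. Ndrg1, Slc2a1 and Pdk1 were at least 3.59-, 2.51- and 2.62-fold higher, which are lower limits since OP9 was below detection. OP9 was the lowest line for P4ha1, P4ha2, Adm, Ndrg1 and Slc2a1, and Pdk1 passed detection in AGM-s3-A9 alone. Ndrg1 was highest in AGM-s3-A7, at 585 against 176 in AGM-s3-A9. For Ldha, Pgk1, Aldoa and Hk1, each taken singly, the 3 lines lay within 1.17-fold of one another. Hk2, Pfkl, Pfkm, Pkm and Ldhb reached 1.5-fold in at least 1 comparison. Of the HIF alpha subunits, Epas1 was 4.85-fold higher in AGM-s3-A9 relative to AGM-s3-A7, and Hif1a was 1.99-fold lower.

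HIF binds a core of 5 bases, ACGTG or GCGTG. The first 250 bases upstream of the annotated start are shown for 4 targets that were higher in AGM-s3-A9 relative to OP9 (P4ha1, P4ha2, Adm and Slc2a1) and for Ldha, which was nearly equal in the lines. The sequences are from RefSeq on mouse build GRCm38.p6, 5′ to 3′, and capitals mark ACGTG or GCGTG on either strand (CACGT and CACGC on the strand shown). CACGTG holds ACGTG on both strands and was counted on each.
P4ha1 (chr10:59323046-59323295, plus strand): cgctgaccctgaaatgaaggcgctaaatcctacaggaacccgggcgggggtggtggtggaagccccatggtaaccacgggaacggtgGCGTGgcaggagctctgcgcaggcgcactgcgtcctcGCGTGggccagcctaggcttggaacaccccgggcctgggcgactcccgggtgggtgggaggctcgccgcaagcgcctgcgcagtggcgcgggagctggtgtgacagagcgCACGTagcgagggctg
P4ha2 (chr11:54100674-54100923, plus strand): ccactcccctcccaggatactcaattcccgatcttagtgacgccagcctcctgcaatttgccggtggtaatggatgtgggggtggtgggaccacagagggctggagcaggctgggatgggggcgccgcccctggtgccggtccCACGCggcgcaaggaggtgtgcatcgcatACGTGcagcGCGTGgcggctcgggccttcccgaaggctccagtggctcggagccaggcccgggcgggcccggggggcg
Adm (chr7:110627407-110627656, plus strand): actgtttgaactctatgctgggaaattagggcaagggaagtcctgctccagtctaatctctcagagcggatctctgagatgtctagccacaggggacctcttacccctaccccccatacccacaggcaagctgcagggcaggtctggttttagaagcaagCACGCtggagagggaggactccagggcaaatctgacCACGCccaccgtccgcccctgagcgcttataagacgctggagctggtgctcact
Slc2a1 (chr4:119108495-119108744, plus strand): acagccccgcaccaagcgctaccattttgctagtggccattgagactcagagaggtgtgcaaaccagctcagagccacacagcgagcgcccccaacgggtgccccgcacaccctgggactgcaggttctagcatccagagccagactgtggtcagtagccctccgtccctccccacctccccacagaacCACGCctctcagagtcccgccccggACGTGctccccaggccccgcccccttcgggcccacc
Ldha (chr7:46845554-46845803, plus strand): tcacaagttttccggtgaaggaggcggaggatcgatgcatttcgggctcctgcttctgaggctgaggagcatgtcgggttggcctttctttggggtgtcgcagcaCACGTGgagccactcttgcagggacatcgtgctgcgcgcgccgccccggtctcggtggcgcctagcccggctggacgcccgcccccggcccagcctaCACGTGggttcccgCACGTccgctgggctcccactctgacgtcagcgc
P4ha1 and P4ha2 held 3 matches each, Adm and Slc2a1 2 each, and Ldha 5. For a gene with several annotated starts, the window with the most matches is shown, and the other Ldha window held 1. Pdk1, also higher in AGM-s3-A9 relative to OP9 and not shown, had windows with 1 and 0 matches. Ndrg1 had no window. Over all members, 32 of 35 genes had 44 such windows, and 81.8% of them held at least 1 match, against 38.6% of the 32851 windows of all genes. ACGTG was in 47.7% of the member windows and 16.6% of all windows, and GCGTG in 56.8% and 28.2%. The member windows were also richer in G and C, with a median of 62.2% against 52.4%, and the part of base composition in the motif shares was not tested. A match describes letters in a window and is not a binding site.

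Values below are normalized intensities, in arbitrary units, after the 3 lines were brought to a common distribution within each array type. They compare lines for 1 probe set and do not compare genes, since probe sets differ in efficiency. A gene is given by its brightest probe set, on MG-U74A unless stated. A line counted as above detection when its value passed 49.0 on MG-U74A, 52.8 on MG-U74B or 61.6 on MG-U74C, and where 1 line of a pair did not pass, that level took its place and the fold is written "at least". Since replicates were lacking, the spread was taken from genes with several probe sets on 1 array: the SD of 1 log2 ratio was 0.29 for AGM-s3-A9 over AGM-s3-A7, 0.31 for OP9 over AGM-s3-A7, and finally 0.33 for AGM-s3-A9 over OP9, so that 2 SD correspond to 1.5-, 1.53- and 1.58-fold. This spread covers probe sets and not separate cultures. In RNA of whole cultures, fewer cells that express a gene and less RNA per cell cannot be told apart.

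Of the 31 genes, 27 were above detection in at least 1 line. Slc16a1 and Slc16a3 (lactate transporters), Aldoc (an aldolase isoform) and Car9 (carbonic anhydrase IX, a classical hypoxia marker) were at or below detection in every line. Gpi1 and Eno1 had no probe set under those symbols, Bnip3l was matched only by a probe set of several symbols, and Gapdh was read only through array controls. Pdk1 and Pfkp passed detection in AGM-s3-A9 alone.

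**Figure D1:**
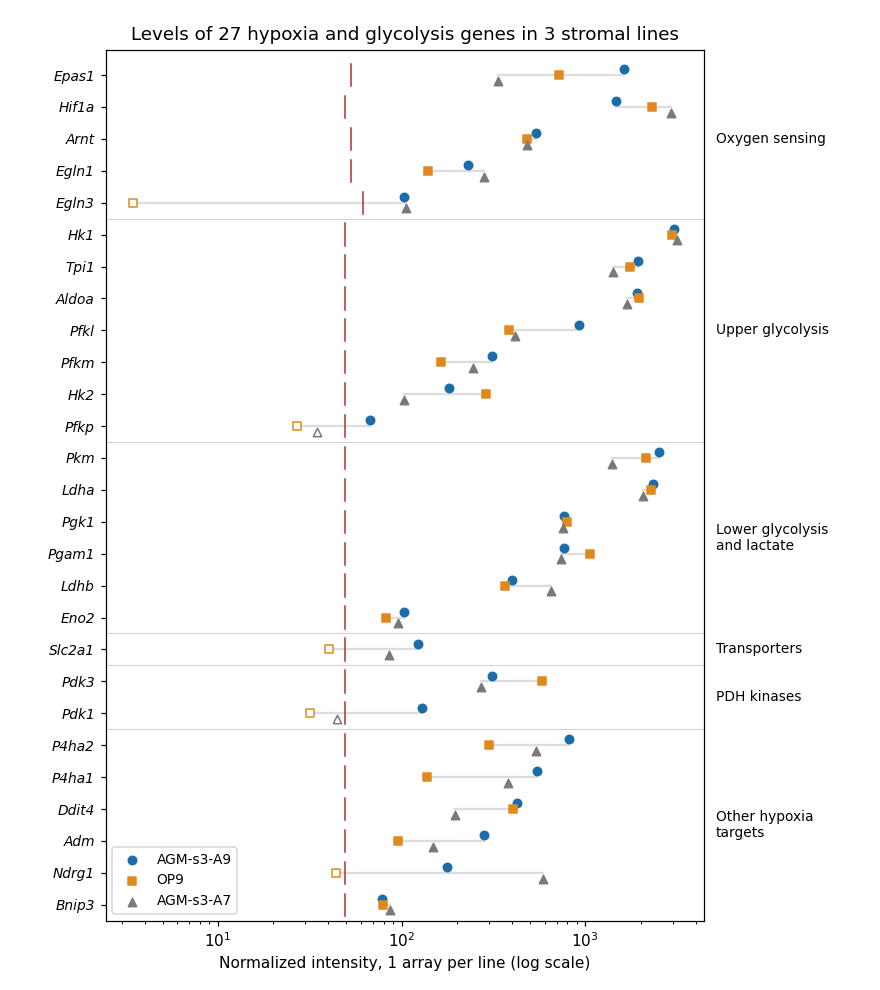
Normalized intensity (log axis, arbitrary units, 1 array per line and array type) of the 27 detected genes by role, in AGM-s3-A9 (circles), OP9 (squares) and AGM-s3-A7 (triangles). Filled symbols are above the detection level of the gene's array type (red tick) and open symbols are at or below it. Symbols of Hk1, Ldha, Pgk1 and Bnip3 nearly coincide, while Ndrg1, P4ha1 and Epas1 are spread over the lines.

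Among the oxygen sensors, Epas1 (HIF-2 alpha), read on MG-U74B, gave 1620.1 in AGM-s3-A9, 715 in OP9 and 334 in AGM-s3-A7. The order was the same on its MG-U74A probe set, with 301 in AGM-s3-A9, 146 in OP9 and 44.1, below detection, in AGM-s3-A7. Epas1 was thus 4.85-fold higher in AGM-s3-A9 relative to AGM-s3-A7 (at least 6.15-fold on MG-U74A), 2.14-fold higher in OP9 relative to AGM-s3-A7, and 2.27-fold higher in AGM-s3-A9 relative to OP9, a log2 ratio of 1.18 that was 0.76 with values as deposited. Hif1a ran in the opposite order, at 1464 in AGM-s3-A9, 2317 in OP9 and 2915 in AGM-s3-A7. Its second probe set gave 1377, 2147 and 2697 in the same order of lines, and both carry a suffix that marks possible cross-hybridisation. Hif1a was 1.99-fold lower in AGM-s3-A9 relative to AGM-s3-A7, just under the 2-fold used for counting. It was 1.26-fold lower in OP9 relative to AGM-s3-A7, within the probe-set spread, and 1.58-fold lower in AGM-s3-A9 relative to OP9, at the edge of that spread. With values as deposited, its log2 ratio was -0.44 for AGM-s3-A9 over AGM-s3-A7, against -0.99 here. For AGM-s3-A9 over OP9 it was -0.03 as deposited, against -0.66 here. Genes of chromosome 12, where Hif1a and Egln3 lie, had a median log2 ratio of -0.20 for AGM-s3-A9 over AGM-s3-A7, and its part in the Hif1a value was not tested.

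Arnt, the shared partner, gave 539 in AGM-s3-A9, 484 in OP9 and 483 in AGM-s3-A7 on MG-U74B. A dimmer Arnt probe set on the same array gave 84.5, 107 and 165 in those lines, 1.96-fold lower in AGM-s3-A9 relative to AGM-s3-A7, so the probe sets of Arnt disagreed. Probe sets of the oxygen sensor Egln1 disagreed as well. On MG-U74B it gave 231 in AGM-s3-A9, 139.7 in OP9 and 282 in AGM-s3-A7, 2.02-fold lower in OP9 relative to AGM-s3-A7, whereas on MG-U74A the values were 208, 185 and 198, 1.07-fold lower. Egln3, itself induced by HIF, gave 103 in AGM-s3-A9 and 106 in AGM-s3-A7 on MG-U74C, and 3.45, below detection, in OP9. AGM-s3-A9 exceeded OP9 at least 1.67-fold, and OP9 lay at least 1.72-fold below AGM-s3-A7. An Egln3 probe set on MG-U74B was below detection in every line, at 47.4, 11.7 and 39.6.

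**Figure D2:**
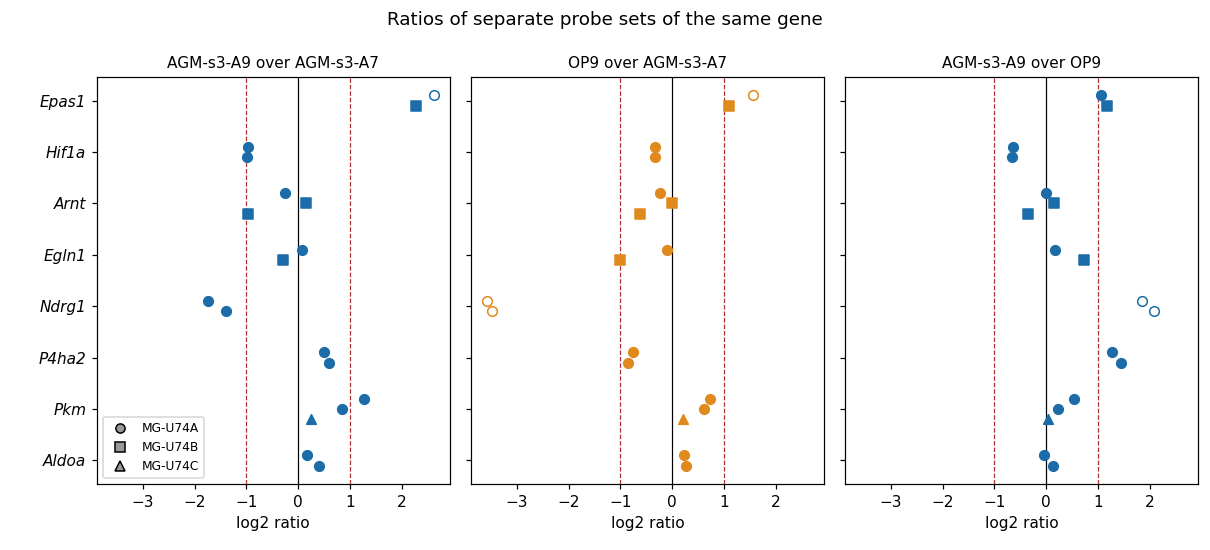
Log2 ratios of members with more than 1 detected probe set, in the 3 comparisons, 1 point per probe set. Epas1, Hif1a, Ndrg1 and P4ha2 keep their direction over probe sets, whereas Egln1 probe sets differ for OP9 over AGM-s3-A7, at -1.01 and -0.10.

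Hexokinases trap glucose in the cell. Hk1, the constitutive isoform, gave 3043 in AGM-s3-A9, 2955 in OP9 and 3148 in AGM-s3-A7, all within 1.07-fold. Hk2, the isoform induced by HIF, gave 181, 287 and 103 in those lines, and was highest in OP9. It was 1.77-fold higher in AGM-s3-A9 relative to AGM-s3-A7, 2.80-fold higher in OP9 relative to AGM-s3-A7, and 1.58-fold lower in AGM-s3-A9 relative to OP9. Hk2 lies, with Tpi1, Gapdh, Eno2 and Ldhb, on chromosome 6. Genes of this chromosome had a median log2 ratio of 0.37 for OP9 over AGM-s3-A7, against 0.04 for all genes. The part of that shift in the values of these members was not tested.

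Phosphofructokinase commits sugar to glycolysis. Its 3 isoforms all gave their highest value in AGM-s3-A9, shown beyond the probe-set spread against both other lines for Pfkl alone. Pfkl, the liver isoform, gave 929 in AGM-s3-A9, 387 in OP9 and 414 in AGM-s3-A7. It was 2.24-fold higher in AGM-s3-A9 relative to AGM-s3-A7 and 2.40-fold higher in AGM-s3-A9 relative to OP9, and OP9 and AGM-s3-A7 differed by 1.07-fold, within the probe-set spread. Pfkm, the muscle isoform, gave 310.5, 163 and 245, which was 1.90-fold higher in AGM-s3-A9 relative to OP9. It was 1.27-fold higher in AGM-s3-A9 relative to AGM-s3-A7 and 1.5-fold lower in OP9 relative to AGM-s3-A7, both within the probe-set spread. Pfkp, the platelet isoform, was above detection in AGM-s3-A9 alone, at 66.9, against 26.9 in OP9 and 34.8 in AGM-s3-A7. Its other probe sets were below detection in every line, at 44.4, 16.5 and 35.7 on MG-U74A and 38.9, 16.8 and 8.14 on MG-U74B. Aldoa, which splits the sugar into trioses, gave 1907.5, 1966 and 1687, and Tpi1, which interconverts the trioses, gave 1947, 1745 and 1417. Neither reached 1.5-fold in any comparison.

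In the lower pathway, Gapdh could be read from 9 control probe sets, 3 per array type. Their mean log2 ratio was 0.22 ± 0.14 for AGM-s3-A9 over AGM-s3-A7, 0.25 ± 0.16 for OP9 over AGM-s3-A7, and close to 0 at -0.03 ± 0.12 for AGM-s3-A9 over OP9 (SD over 9 probe sets of 1 RNA per line). After normalization, Gapdh was thus 1.43-fold or less apart between lines on every control probe set. These probe sets were very bright, where normalization to a common distribution can narrow ratios. On MG-U74B, the 3′ control took the same value, 4142, in OP9 and AGM-s3-A7. As deposited, the middle control gave 5732, 4581 and 3541 in AGM-s3-A9, OP9 and AGM-s3-A7 on MG-U74A. On MG-U74B it gave 3802, 5259 and 4044. Pgk1, which makes ATP, gave 771 in AGM-s3-A9, 791 in OP9 and 752 in AGM-s3-A7, the lines lying within 1.05-fold. Pgam1 (phosphoglycerate mutase) gave 766, 1059.5 and 737, 1.44-fold higher in OP9 relative to AGM-s3-A7. Eno2, the neuronal enolase, gave 103, 82.6 and 96.1, not beyond the spread.

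Pkm, the pyruvate kinase of proliferating cells and muscle, was highest in AGM-s3-A9 and lowest in AGM-s3-A7. It gave 2516 in AGM-s3-A9, 2143 in OP9 and 1406 in AGM-s3-A7, 1.79-fold higher in AGM-s3-A9 relative to AGM-s3-A7 and 1.52-fold higher in OP9 relative to AGM-s3-A7, with 1.17-fold between AGM-s3-A9 and OP9, and the last 2 are not beyond the spread. A further MG-U74A probe set gave 1000.4, 686 and 415, a 2.41-fold difference between AGM-s3-A9 and AGM-s3-A7, while one on MG-U74C gave 131, 128 and 110.5, a 1.19-fold difference. All 3 Pkm probe sets carry a cross-hybridisation suffix. The lactate dehydrogenases behaved unlike each other. Ldha, the HIF-induced subunit that favours lactate formation, gave 2329.7, 2269 and 2069, all within 1.13-fold. Ldhb, the subunit that favours lactate use, gave 398, 368 and 654, so that AGM-s3-A9 lay 1.64-fold and OP9 1.78-fold below AGM-s3-A7, although with values as deposited the log2 ratio for AGM-s3-A9 over AGM-s3-A7 was 0.04 in place of -0.71.

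**Figure D3:**
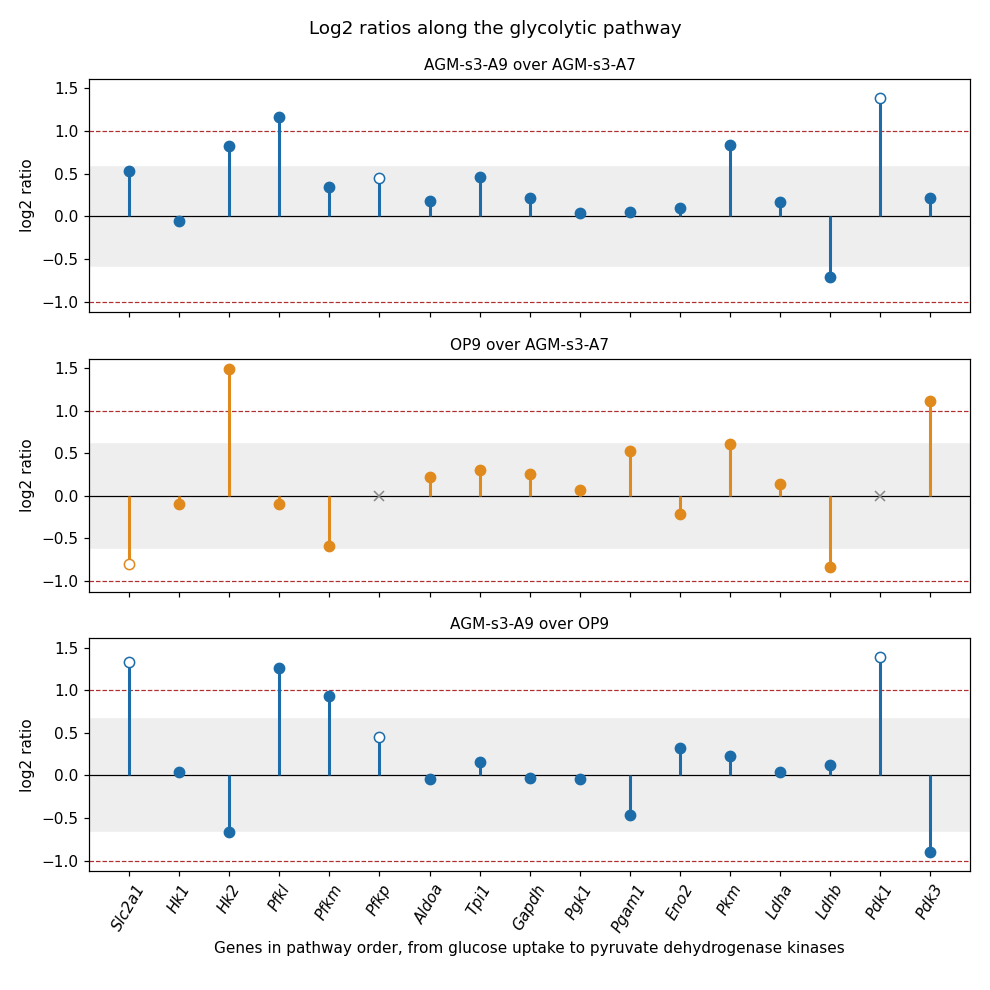
Log2 ratios along the pathway, from the glucose transporter to the pyruvate dehydrogenase kinases, 1 panel per comparison. Filled points are measured in both lines, open points are lower limits, crosses mark genes at or below detection in both lines, the grey band is 2 SD of 1 log2 ratio from probe-set pairs, and Gapdh is the mean of 9 control probe sets. For AGM-s3-A9 over OP9, Slc2a1, Pfkl, Pfkm and Pdk1 lie above the band, Hk2 at its lower edge and Pdk3 below it.

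Slc2a1 (GLUT1), the basal glucose transporter, gave 123 in AGM-s3-A9, 40.3, below detection, in OP9 and 85.3 in AGM-s3-A7. AGM-s3-A9 exceeded OP9 at least 2.51-fold, OP9 lay at least 1.74-fold below AGM-s3-A7, and AGM-s3-A9 exceeded AGM-s3-A7 by 1.44-fold, within the spread. Pyruvate dehydrogenase kinases shut pyruvate out of the citric acid cycle, and the 2 members differed in the line where they were brightest. Pdk1, the HIF target, gave 128 in AGM-s3-A9. It was below detection at 31.8 in OP9 and 44.4 in AGM-s3-A7, so AGM-s3-A9 exceeded each of them at least 2.62-fold. Genes of chromosome 2, where Pdk1 lies, had a median log2 ratio of 0.24 for AGM-s3-A9 over AGM-s3-A7. The part of that shift in the Pdk1 value was not tested. Pdk3 gave 311 in AGM-s3-A9, 582 in OP9 and 269 in AGM-s3-A7, 2.16-fold higher in OP9 relative to AGM-s3-A7 and 1.87-fold lower in AGM-s3-A9 relative to OP9.

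Among the other hypoxia targets, P4ha1 and P4ha2 encode catalytic subunits of collagen prolyl 4-hydroxylase, which stabilises the collagen triple helix. P4ha1 gave 543 in AGM-s3-A9, 138 in OP9 and 380.4 in AGM-s3-A7. It was 3.93-fold higher in AGM-s3-A9 relative to OP9, 2.75-fold lower in OP9 relative to AGM-s3-A7, and 1.43-fold higher in AGM-s3-A9 relative to AGM-s3-A7, the last within the probe-set spread. P4ha2 gave 813, 298 and 538, 2.73-fold higher in AGM-s3-A9 relative to OP9 and 1.80-fold lower in OP9 relative to AGM-s3-A7. Its second probe set gave 275, 114 and 194, 2.40-fold higher in AGM-s3-A9 relative to OP9. OP9 was thus the lowest line for both subunits on all of their detected probe sets. OP9 was also the lowest line for collagen: Col3a1 gave 3597 in AGM-s3-A9, 549.6 in OP9 and 3281 in AGM-s3-A7, and Col1a1 6684, 3539 and 6174, and their part in the P4ha values was not tested.

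Adm, the vasodilator peptide adrenomedullin, gave 281 in AGM-s3-A9, 96.2 in OP9 and 148 in AGM-s3-A7. It was 2.93-fold higher in AGM-s3-A9 relative to OP9, 1.90-fold higher in AGM-s3-A9 relative to AGM-s3-A7 and 1.54-fold lower in OP9 relative to AGM-s3-A7. Ddit4 (REDD1), an inhibitor of mTORC1, was the target shared by AGM-s3-A9 and OP9, at 426 in AGM-s3-A9, 403 in OP9 and 196 in AGM-s3-A7. AGM-s3-A9 exceeded AGM-s3-A7 by 2.17-fold and OP9 exceeded it by 2.06-fold, and these comparisons share the AGM-s3-A7 array. Bnip3, a mitophagy receptor, stayed close to detection in every line, at 78.2, 79.2 and 87.0.

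Ndrg1, a stress- and hypoxia-responsive gene linked to differentiation, differed between all 3 lines by more than the spread. It gave 176 in AGM-s3-A9, 43.9, below detection, in OP9 and 585 in AGM-s3-A7. Its second probe set, which carries no cross-hybridisation suffix, gave 208, 43.3 and 547. Ndrg1 was 3.33-fold lower in AGM-s3-A9 relative to AGM-s3-A7, and at least 11.9-fold lower in OP9 relative to AGM-s3-A7. AGM-s3-A9 exceeded OP9 at least 3.59-fold, and at least 4.25-fold on the second probe set. With values as deposited, the log2 ratio for AGM-s3-A9 over AGM-s3-A7 was -0.66, against -1.74 here. Ndrg1 and Pfkm lie on chromosome 15, whose genes had a median log2 ratio of -0.17 for AGM-s3-A9 over AGM-s3-A7, -0.49 for OP9 over AGM-s3-A7, and a positive 0.27 for AGM-s3-A9 over OP9, and the part of that shift in their values was not tested.

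For AGM-s3-A9 over OP9, 8 of 27 members (29.6%) were at least 2-fold higher, against 6.58% of the 8760 genes tested. At least 2-fold lower were 0 of 27, against 5.06%. Since the members were chosen with earlier results of these data known, these shares and those of the other comparisons are description only. Of the 8, 6 are hypoxia targets other than glycolytic enzymes (P4ha1, Ndrg1, Adm, P4ha2, Pdk1 and Slc2a1), and the others are Epas1 and Pfkl. By role, the 6 are 4 of 6 other hypoxia targets tested, 1 of 2 pyruvate dehydrogenase kinases and the 1 transporter tested. Egln3 was counted with oxygen sensing. Of the 9 hypoxia targets outside the enzymes that were tested, 6 were at least 2-fold higher and the median log2 ratio was 1.39. Of the 13 glycolytic enzymes and lactate dehydrogenases tested, 1 was, with a median of 0.12, against -0.02 for all genes. Among genes bright enough to reach 2-fold over the detection level, 8 of 24 members were higher against 9.16% of all such genes, and 0 lower against 7.05%. At 1.5-fold, 11 of 27 were higher against 14.2%, and 3 lower against 14.5%. Among stromal markers, 4 of 11 tested passed 2-fold upward in this comparison and 0 downward, and their part was not tested.

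For AGM-s3-A9 over AGM-s3-A7, the lines of 1 embryonic region that differ in support, 4 of 27 members (14.8%) were at least 2-fold higher, namely Epas1, Pdk1, Pfkl and Ddit4, against 3.08% of the 8590 genes tested. Ndrg1 was the 1 member (3.70%) at least 2-fold lower, against 2.28%. Among genes bright enough to reach 2-fold, 4 of 24 members were higher against 4.35%, and 1 lower against 3.22%. At 1.5-fold, 8 of 27 were higher against 10.5%, and 3 lower against 8.7%. The median log2 ratio was 0.53 over the 9 hypoxia targets and 0.18 over the 13 enzymes, against 0.01 for all genes. Among cell cycle genes in the same comparison, 5 of 14 were at least 2-fold higher and 0 lower, with a median of 0.73, and their part in the glycolytic values was not tested. With values as deposited, where AGM-s3-A9 was brighter over MG-U74A as a whole, 12 members were at least 2-fold higher and 0 lower, against 12.75% of all genes higher.

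For OP9 over AGM-s3-A7, 4 of 25 members (16%) were at least 2-fold higher, namely Hk2, Pdk3, Epas1 and Ddit4, against 5.14% of the 8739 genes tested. Ndrg1, P4ha1 and Egln1, 3 of 25 (12%), were at least 2-fold lower, against 5.98%. Among genes bright enough to reach 2-fold, 4 of 21 members were higher against 7.21%, and 3 lower against 8.39%. At 1.5-fold, 5 of 25 were higher against 14.2%, and 9 lower against 13.4%. The hypoxia targets outside the enzymes split, with 2 of 8 higher and 2 of 8 lower and a median log2 ratio of -0.71, and the 12 enzymes had a median of 0.10, against 0.04 for all genes. Cell cycle genes were again higher, 5 of 13 at least 2-fold and 0 lower, whereas for AGM-s3-A9 over OP9 0 of 14 were higher and 1 lower.

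**Figure D4:**
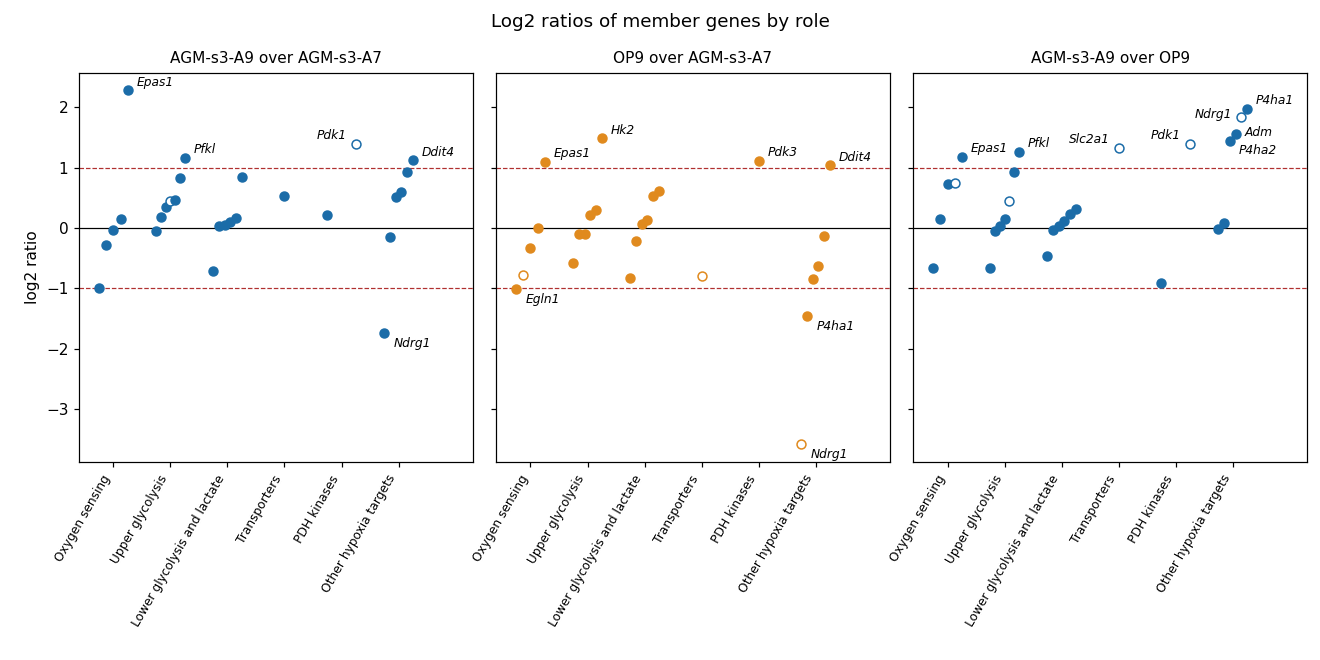
Log2 ratios of detected members by role in the 3 comparisons, with genes at or past 2-fold (dashed lines) named and open points for lower limits. For AGM-s3-A9 over OP9, 8 genes lie above the upper line and 0 below the lower one.

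Of the 27 detected members, 10 had every fold of their brightest probe set under 1.5: Aldoa, Arnt, Bnip3, Eno2, Hk1, Ldha, Pgam1, Pgk1, Tpi1 and, with lower limits only, Pfkp. Aldoa, Tpi1, Pgk1, Pgam1 and Eno2 among them are successive or nearly successive enzymes of the pathway. The largest fold among the 10 was the 1.44 of Pgam1.

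Further genes of the pathway outside the 35 were counted from lists drawn up by function. Of 20 further hypoxia targets tested for AGM-s3-A9 over OP9, 1 passed 2-fold upward and 1 downward. The higher one, Plod1, a collagen lysyl hydroxylase read on MG-U74B, gave 395 in AGM-s3-A9, 91.4 in OP9 and 221 in AGM-s3-A7. The lower one, Hmox1, which degrades heme, gave 538, 1877 and 914. The median log2 ratio of the 20 was -0.06, unlike the 1.39 of the 9 member targets, a difference that was not tested. For AGM-s3-A9 over AGM-s3-A7, 1 was higher and 0 lower. The higher one was Plod2, another lysyl hydroxylase, at 1076, 1096 and 429 in AGM-s3-A9, OP9 and AGM-s3-A7 on MG-U74B. For OP9 over AGM-s3-A7, 3 were higher (Plod2, Gys1 and Hmox1) and 3 lower (Insig2, Plod1 and Mxi1). Vegfa, the angiogenic growth factor, gave 115, 126 and 73.9 and passed 2-fold in no comparison.

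Of the other genes of oxygen sensing, 0 of 12 passed 2-fold for AGM-s3-A9 over AGM-s3-A7 and 0 of 11 for OP9 over AGM-s3-A7, and Crebbp, a HIF coactivator, was the 1 of 11 lower in AGM-s3-A9 relative to OP9, at 97.7 against 204. Vhl, read on MG-U74B by a probe set with a cross-hybridisation suffix, gave 517 in AGM-s3-A9, 515 in OP9 and 420.2 in AGM-s3-A7. In the rest of glucose metabolism, Eno3, the muscle enolase, gave 262, 86.3 and 200, and Gpd1, which feeds glycerol phosphate, gave 132, 63.3 and 14.1. AGM-s3-A9 exceeded OP9 by 3.04-fold for Eno3 and 2.08-fold for Gpd1, and 2 of 14 passed 2-fold upward and 1 downward in that comparison. The counts were 1 upward and 0 downward of 12 for AGM-s3-A9 over AGM-s3-A7, and 1 and 1 of 13 for OP9 over AGM-s3-A7. Around pyruvate entry and the citric acid cycle, 0 of 21 genes passed 2-fold for AGM-s3-A9 over AGM-s3-A7. Pdk4, a further pyruvate dehydrogenase kinase, gave 464 in AGM-s3-A9, 139.6 in OP9 and 284 in AGM-s3-A7, 3.32-fold higher in AGM-s3-A9 relative to OP9, the 1 of 22 higher there, beside 2 lower. It was also the 1 of 22 at least 2-fold lower in OP9 relative to AGM-s3-A7.

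The lines carried markers of stroma, with 11 of 12 above detection in AGM-s3-A9, 10 of 12 in OP9 and 11 of 12 in AGM-s3-A7, and summed MG-U74A levels of 25173, 16677 and 24337. Vim, a defining mesenchymal marker, was below detection in every line on its probe set. Of 12 hematopoietic markers, Laptm5 alone passed, at 49.6 in AGM-s3-A9 and 72.8 in AGM-s3-A7, Ptprc was at 2.31 or less in every line, and 0 of 8 endothelial markers passed. Of 8 epithelial markers 3 were above detection in every line (Epcam, Cdh1 and Cldn7). The deposited medians differed between lines, at 64.5, 42.8 and 42.7 on MG-U74A, 21.6, 32.6 and 26.5 on MG-U74B and 8.49, 9.68 and 12.1 on MG-U74C (AGM-s3-A9, OP9, AGM-s3-A7). The ratio of 3′ to 5′ Gapdh control signal, a measure of RNA integrity, lay between 0.880 and 1.002 on the 9 arrays.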

How the data were processed

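Per the labels' protocols, total RNA of each line was purified with RNeasy and 6 ug went into biotin-labelled cRNA. The deposited files hold 1 intensity per probe set and array, on a linear scale. How the authors read, background-corrected, summarised and scaled them is not given in the sources used here.

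Intensities were quantile-normalized over the 3 lines within each array type, and ratios were taken only within an array type. Detection was the higher of the median and the 95th percentile of 34 negative control probe sets. Values at or below it were raised to it before ratios were taken. A gene was represented by its brightest probe set carrying 1 symbol. Of the 36899 probe sets, 29131 had 1 symbol, 724 several, 6846 none and 198 were array controls. A fold of at least 2 was counted, without tests. Members with a fold of at least 1.5 in any comparison were described singly, and from other lists up to 4 of the counted genes with the largest folds, with Vhl, Vegfa, Vim, Col1a1 and Col3a1 added after their values were seen. The members and lists were chosen with earlier results of these data known. The steps were tested on simulated data. Python 3.11.15, numpy 2.4.6 and pandas 2.3.3 were used. Alternatives covered scaling, detection level, choice of probe set, fold and chromosomes.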

Additional observations from a re-analysis of the deposited data

How the results depend on the processing

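For AGM-s3-A9 over OP9, the 8 members past 2-fold upward numbered 7 to 10 under the alternatives run at 2-fold, with 0 lower under each. The share of all genes past 2-fold upward there was 13.5% with values as deposited and 12.5% with no detection level, against 6.58% here. With values as deposited, without normalization, MG-U74A genes shifted as a whole by a median log2 of 0.66 for AGM-s3-A9 over AGM-s3-A7, and by 0.55 for AGM-s3-A9 over OP9. Then 12 members were higher and 0 lower for AGM-s3-A9 over AGM-s3-A7, against 12.75% and 3.24% of all genes. The member median was 0.89 there and 0.76 for AGM-s3-A9 over OP9. Relative to the shift, the MG-U74A members lay at 0.29 and 0.22. Scaling to the 75th percentile or to the median, and using no detection level, each gave 2 members lower for AGM-s3-A9 over AGM-s3-A7 (Hif1a joined under both scalings, Slc16a1 with no detection level), against 2.43%, 2.11% and 8.75% of all genes. With no detection level, OP9 over AGM-s3-A7 gave 6 of 31 lower, against 12.3% of all genes. At 1.5-fold, AGM-s3-A9 over AGM-s3-A7 gave 8 of 27 higher and 3 lower, against 10.5% and 8.7% of all genes. At that fold, OP9 over AGM-s3-A7 gave 9 of 25 lower against 13.4%, and AGM-s3-A9 over OP9 3 of 27 lower against 14.5%. Without chromosomes 6 and 15, an alternative chosen after seeing the data, 0 members were lower for AGM-s3-A9 over AGM-s3-A7, since Ndrg1 lies on chromosome 15. Of all genes off these chromosomes, 2.10% were at least 2-fold lower.

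Ratios past 2-fold that lost it under an alternative were Egln1 for OP9 over AGM-s3-A7 (-1.08 to -0.10), Epas1 for AGM-s3-A9 over OP9 (0.76 as deposited), Epas1 for OP9 over AGM-s3-A7 (0.96 with median scaling) and Ndrg1 for AGM-s3-A9 over AGM-s3-A7 (-0.66 as deposited), and the cause was not tested. Of 479 recomputed ratios of the 17 members past 1.5-fold, 46 moved by at least the probe-set SD, and 34 of those with values as deposited. Of the ratios past 2-fold, 0 changed sign. Of the smaller ones 3 did, all for AGM-s3-A9 over AGM-s3-A7: Ldhb from -0.71 to 0.04 as deposited, Egln1 from -0.29 to 0.07 on MG-U74A alone and Egln3 from -0.04 to 0.04 with median scaling. No paired analysis was possible because each line has 1 array per array type. Intensity near the detection level limits Slc2a1, Pdk1, Pfkp, Egln3, Bnip3 and Eno2.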
